A study of Mus musculus with 8 samples.

Results

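The genes of the type 17 and IL-22 programme described here, in intraepithelial lymphocytes (IELs) of the mouse gut, were Il17a, Il17f, Il22, its near-identical copy Iltifb, Rora, Il23r, Ccr6, Il1r1 and Ahr. They were taken by symbol from a table of 25230 gene symbols, which held all 9. The set was chosen by its counts in these same libraries, with the difference between the groups already known, so the members' differences are given as a description. IELs are lymphocytes, mostly T cells, that sit within the epithelium. The 8 libraries came from C57BL/6J mice, 4 per group, and every animal had been injected intraperitoneally with 35 µg of an antibody to CD3, a stimulus to T cells. The PBS group was given PBS alongside, and the Ex4 group 10 nmol/kg of exendin-4, a peptide that activates the GLP-1 receptor. IELs were isolated 3 hours later by Percoll and a sort on CD45, which is found on all leukocytes, so the sort did not separate T cells from other leukocytes. The animals' age and sex were not given in the sources used here, and all 8 mice had received the antibody, so no level without activation was measured.

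Type 17 lymphocytes make IL-17A, IL-17F and IL-22 when IL-23 and IL-1 act on them. The nuclear receptor RORα and the ligand-activated factor AHR take part in driving the programme, and the chemokine receptor CCR6 marks many of the cells. In the gut IL-22 and IL-17 act on the epithelium, where they induce antimicrobial proteins and repair, and AHR is needed for the upkeep of IELs.

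Total counts ran from 13386889 in Ex4 4 to 31843413 in Ex4 3. Levels are CPM, a gene's counts relative to the total of its library, after scaling with trimmed means (TMM). Values after ± are SDs over 4 libraries unless an SE is named. Genes of IELs were abundant: the summed CPM of 16 of 16 IEL markers was between 56634 and 83602 in the PBS libraries and between 74522 and 88953 in the Ex4 libraries, most of it from the granzyme genes Gzma (40774 ± 7146 and 47151 ± 5398 CPM) and Gzmb (19241 ± 3991 and 19408 ± 1832 CPM). Transcripts of other cells were present as well, with the epithelial gene Epcam at 161 ± 16.4 and 126 ± 19.9 CPM and the plasma cell gene Jchain at 768 ± 362 and 662 ± 761 CPM in PBS and Ex4. The fewest genes at matched depth were detected in PBS 2 (16158) and Ex4 3 (16502), against 17528 to 19087 in the other libraries.

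Il22 and Iltifb lie 79.6 kb apart on chromosome 10 in GRCm38 (mm10), Il22 from 118204584 to 118210047 and Iltifb from 118289629 to 118295038, on opposite strands. Their annotated transcripts were identical at 97.3% of 1111 aligned positions, and their coding sequences, of 540 bases each, differed at 9. Of the 911 stretches of 200 bases in the Il22 transcript, as long as 1 read, 16 (1.8%) also occurred in that of Iltifb, so most full-length reads hold at least 1 differing base. How the authors' counting treated reads that match both was not given. The sum of the copies does not depend on how shared reads were split between them, but it lacks any that were discarded. The coding stretch from base 158 to base 217 was chosen as one with the most differing bases for its length. It holds 3 of them, in capitals.
Il22: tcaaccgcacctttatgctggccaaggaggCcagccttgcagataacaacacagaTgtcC
Iltifb: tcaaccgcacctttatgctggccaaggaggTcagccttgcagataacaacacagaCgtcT

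The annotated start windows of the copies are shown because most of their bases lay outside their best local alignment. Each RefSeq window (GRCm38.p6) runs from 250 bases before to 50 bases after a transcript start, at chr10:118204714-118205013 on the plus strand for Il22 and chr10:118294989-118295288 on the minus strand for Iltifb. The start used for Iltifb is the edge of its gene span given above, whereas that of Il22 lies 380 bases inside its span. The whole Il22 window is thus within its gene span, so the windows do not cover matching parts of the copies. Capitals mark the stretch shared in the best local alignment of the windows, and no further shared stretch was sought.
Il22: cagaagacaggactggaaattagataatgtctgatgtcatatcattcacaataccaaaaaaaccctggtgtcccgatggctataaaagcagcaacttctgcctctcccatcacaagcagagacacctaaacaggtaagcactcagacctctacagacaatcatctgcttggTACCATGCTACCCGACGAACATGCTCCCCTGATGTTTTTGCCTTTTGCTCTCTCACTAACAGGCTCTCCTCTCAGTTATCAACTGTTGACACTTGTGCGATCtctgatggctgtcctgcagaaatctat
Iltifb: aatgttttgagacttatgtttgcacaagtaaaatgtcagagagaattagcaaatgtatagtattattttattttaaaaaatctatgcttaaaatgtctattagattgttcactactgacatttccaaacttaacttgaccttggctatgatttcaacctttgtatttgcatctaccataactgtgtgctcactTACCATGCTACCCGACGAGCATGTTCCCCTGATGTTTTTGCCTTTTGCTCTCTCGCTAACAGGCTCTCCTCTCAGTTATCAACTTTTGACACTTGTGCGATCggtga
The shared stretch was 102 bases long, 98 of them identical and without gaps. The 171 bases before it in the Il22 window and the 193 bases before it in the Iltifb window were not part of the local alignment.

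The comparison sets exendin-4 against PBS in activated IELs, and the cytokine genes are given first. Il22, whose product acts on epithelial cells, was the most abundant of the 9 genes per length. The sum of Il22 and Iltifb was at 41.0, 189, 92.7 and 126 CPM in PBS 1 to 4 and at 343, 205, 348 and 229 CPM in Ex4 1 to 4. The groups did not overlap, though PBS 2 came close below Ex4 2. The means were 112 ± 62.1 and 282 ± 74.9 CPM, and the log2 fold change was 1.33 (SE 0.42). In such bulk libraries a larger share of cells of a type and more RNA per cell cannot be told apart.

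Iltifb contributed little to that sum. It had 8, 13, 11 and 17 counts in PBS 1 to 4 and 63, 45, 110 and 37 in Ex4 1 to 4, or 0.607 ± 0.245 and 2.72 ± 0.861 CPM. The groups did not overlap, and the log2 fold change was 2.16 (SE 0.55). Its share of the summed counts was 0.642% ± 0.278 with PBS and 0.967% ± 0.173 with Ex4. The lowest share was 0.285% in PBS 2 (exact Clopper-Pearson 95% interval 0.152 to 0.487) and the highest 1.14% in Ex4 4 (0.806 to 1.57). These intervals cover counting error only. The other 6 shares lay from 0.589% to 1.09%, so the sum followed Il22 in every library.

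**Figure D1:**
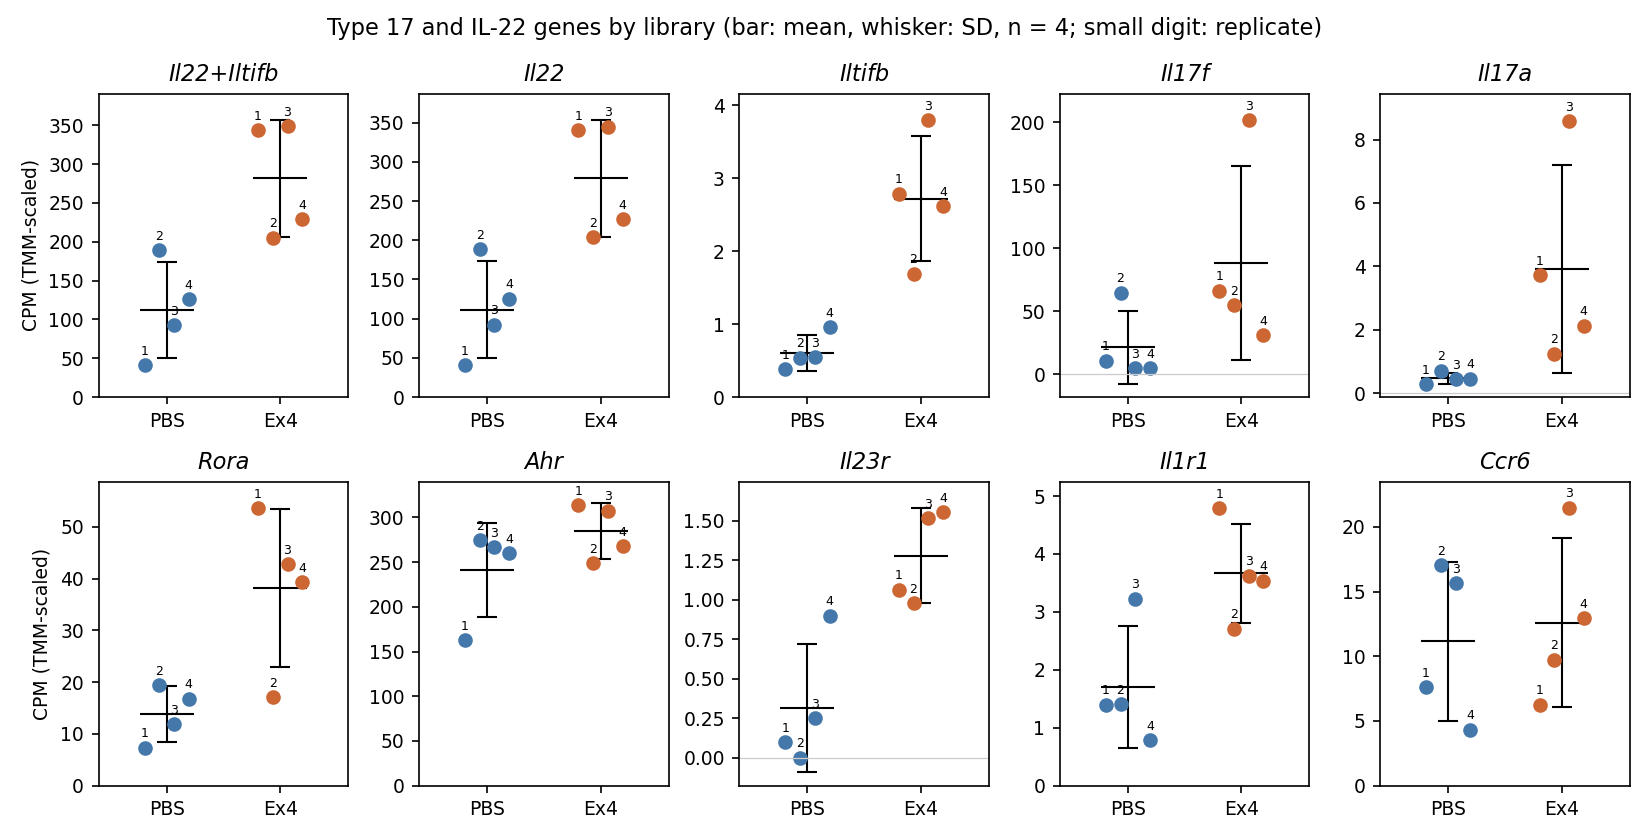
CPM (TMM-scaled, linear axes that include 0) of Il22 plus Iltifb and of each of the 9 genes in PBS and Ex4; points are single libraries with their replicate number, bars are means and whiskers SDs of 4. The PBS and Ex4 points do not overlap for Il22, Iltifb, their sum, Il17a and Il23r, whereas Ccr6 and Ahr overlap widely.

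Il17a and Il17f encode cytokines that act as dimers on the same receptor, and lie 42.6 kb apart on chromosome 1, Il17a from 20730905 to 20734496 and Il17f from 20777146 to 20785274. Il17f was at 10.8, 64.9, 5.01 and 5.06 CPM in PBS 1 to 4 and at 66.4, 54.7, 202 and 30.9 CPM in Ex4 1 to 4. PBS 2 reached the level of Ex4 1 and lay above Ex4 2 and Ex4 4, so the groups overlapped. Its fitted log2 fold change of 2.04 (SE 1.06) was 3.65 without PBS 2, 1.22 without Ex4 3 and 2.85 without both.

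Il17a was far lower, with 6, 17, 9 and 8 counts in PBS 1 to 4 and 84, 33, 249 and 30 in Ex4 1 to 4. That is 0.289, 0.705, 0.447 and 0.450 CPM with PBS and 3.72, 1.24, 8.59 and 2.12 CPM with Ex4. The groups did not overlap, but the Ex4 libraries differed among themselves 6.92-fold, more than the 2.44-fold range with PBS. The log2 fold change was 3.03 (SE 0.65), and 2.28 without Ex4 3.

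The ratio of Il17f to Il17a counts ran from 11.2 in PBS 3 to 92.0 in PBS 2 and from 14.6 in Ex4 4 to 44.1 in Ex4 2. Il17f thus exceeded Il17a in all 8 libraries. Their coding sequences were identical at 60.8% of aligned positions, and 0 of 972 stretches of 200 bases in the Il17a transcript occurred in that of Il17f.

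Among the transcription factors, Rora encodes RORα and spans 68653404 to 69388246 on chromosome 9. It was at 7.36, 19.5, 11.9 and 16.8 CPM in PBS 1 to 4 and at 53.6, 17.1, 42.8 and 39.3 CPM in Ex4 1 to 4. Ex4 1, Ex4 3 and Ex4 4 stood above all PBS libraries, while Ex4 2 lay within the PBS range. This gave a log2 fold change of 1.46 (SE 0.36), and from 1.24 to 1.69 with 1 library left out.

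Ahr, on chromosome 12 from 35497979 to 35534989, was abundant. It was at 162, 275, 267 and 260 CPM in PBS 1 to 4 and at 314, 249, 308 and 268 CPM in Ex4 1 to 4. PBS 1 alone lay well below the other libraries. Ahr differed by 0.24 (SE 0.17) on the log2 scale, and by 0.08 without PBS 1.

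Il23r encodes the receptor subunit for IL-23 and lies on chromosome 6 from 67422932 to 67491855. It had 2, 0, 5 and 16 counts in PBS 1 to 4 and 24, 26, 44 and 22 in Ex4 1 to 4. The groups did not overlap on the CPM scale, where PBS 4 was at 0.900 and the lowest Ex4 library at 0.978. With PBS 2 at 0 counts, where 3 counts would be 0.124 CPM, and PBS 1 under that number, a precise fold cannot be given. The fitted log2 fold change was 2.06 (SE 0.93), and 3.43 without PBS 4.

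Il1r1 encodes the signalling receptor for IL-1 and lies on chromosome 1 from 40222480 to 40316201. It was at 1.40, 1.41, 3.23 and 0.788 CPM in PBS 1 to 4 and at 4.79, 2.71, 3.62 and 3.54 CPM in Ex4 1 to 4. PBS 3 lay above Ex4 2, and the other PBS libraries lay below every Ex4 library. For Il1r1 the log2 fold change was 1.10 (SE 0.49).

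Ccr6 encodes the receptor for the chemokine CCL20, is also a gene of B cells, and lies on chromosome 17 from 8236041 to 8258519. It was at 7.60, 17.1, 15.6 and 4.33 CPM in PBS 1 to 4 and at 6.25, 9.74, 21.5 and 12.95 CPM in Ex4 1 to 4. The groups overlapped over most of their range. Its fold change of 0.18 on the log2 scale (SE 0.45) was -0.24 without Ex4 3 and -0.11 without PBS 4. Over the same libraries the B cell gene Cd79a was at 40.3, 100, 127 and 58.1 CPM with PBS and at 32.2, 66.0, 138 and 65.8 CPM with Ex4. Within the Ex4 group both Cd79a and Ccr6 were highest in Ex4 3 and lowest in Ex4 1. Within the PBS group they differed, with Ccr6 highest in PBS 2 and lowest in PBS 4. Cd79a was highest there in PBS 3 and lowest in PBS 1. The summed CPM of 8 of 8 B and plasma cell markers was 889 to 1483 with PBS and 269 to 2266 with Ex4, and their part in the Ccr6 values was not tested.

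**Figure D2:**
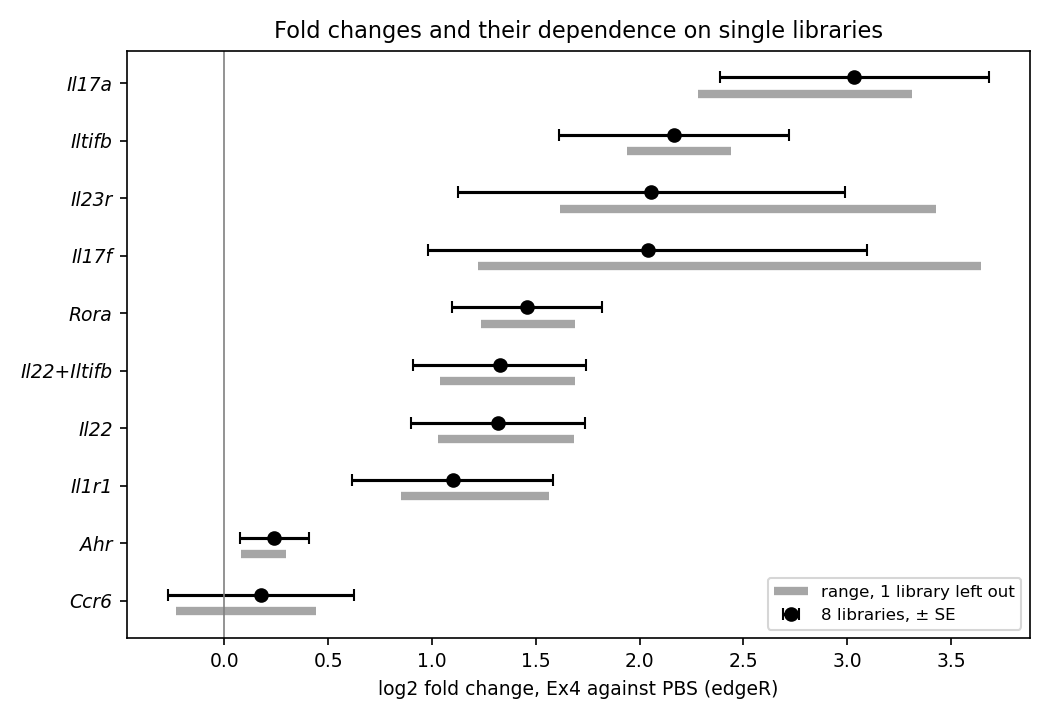
Log2 fold changes of Ex4 against PBS (edgeR), points with SE whiskers over 8 libraries; grey bars give the range when each library is left out in turn. Il17f and Il23r have the widest grey bars, and that of Ccr6 spans 0.

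In the edgeR quasi-likelihood test over 14691 genes, 0 of the 9 genes passed an adjusted p of 0.05, where 0.0136% of all genes did. At an unadjusted p under 0.05 in edgeR there were 6 of the 9, against 7.61% of all genes, and all 6 were on the higher side (3.71% of all genes), with 0 on the lower (3.9%). DESeq2 called 3, Il17a, Iltifb and Rora, all higher. It called 0.533% of the 13129 genes to which it gave an adjusted p, 0.305% as higher. DESeq2 did not call the sum of Il22 and Iltifb (log2 fold change 1.31, SE 0.446). Iltifb counts here as a gene of its own, and whether reads of Il22 are among its counts was not tested. Il23r was given no adjusted p by DESeq2 and so could not be called. With limma-voom 0 were called, where it called 0.00681% of all genes. The groups did not overlap for 4, Il17a, Il22, Iltifb and Il23r, against 2.29% of all genes on the higher side. The same libraries chose the genes, so nothing is read from these counts. All 9 passed the filter on low counts, but 3 of them, Il17a, Iltifb and Il23r, needed Ex4 libraries for it: the filter asked for 4 libraries, and 1, 3 and 1 PBS libraries were above its limit.

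Per kb of exon, the scale on which genes can be compared, the order of the mean levels with PBS was Il22, Ahr, Il17f, Ccr6, Rora, Iltifb, Il17a, Il1r1 and Il23r. Il22 was at 101 ± 55.9 CPM per kb and Ahr at 39.1 ± 8.55, with overlapping ranges, and Il17f at 10.6 ± 14.4. The levels per kb of Ccr6 (4.81 ± 2.66) overlapped with those of Il17f, and those of Rora (1.06 ± 0.409), Iltifb (0.529 ± 0.214) and Il17a (0.404 ± 0.147) overlapped from one gene to the next. With Ex4 the level per kb of Il22 was 251 ± 66.9, and its lowest library, at 183, lay above the highest of Ahr, at 50.9. Il17a changed places most, from the seventh place with PBS to the fifth with Ex4, at 3.35 ± 2.80 CPM per kb, and it overlapped there with Rora (2.92 ± 1.17) and Iltifb (2.38 ± 0.751).

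**Figure D3:**
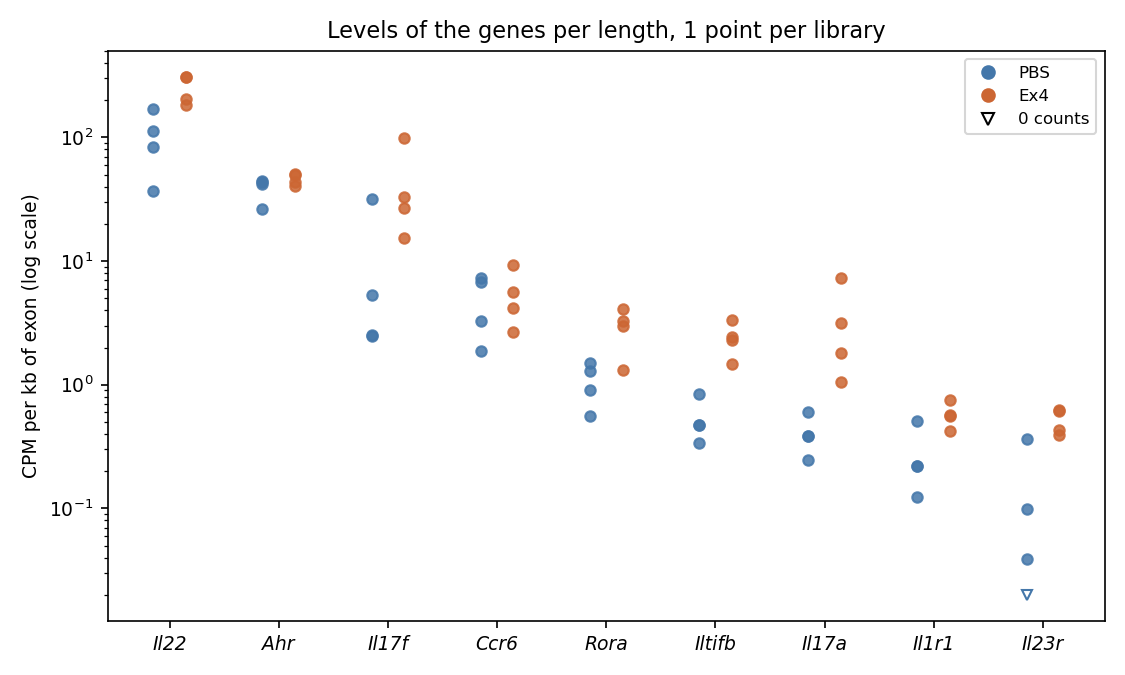
CPM per kb of exon (log axis) of each of the 9 genes, ordered by their mean with PBS; each point is 1 of 8 libraries and an open triangle marks 0 counts. Il22 stands highest in the mean of both groups, and Il23r and Il1r1 lowest.

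The mice of one group differed, and several of the genes did so together. PBS 1 was the lowest PBS library for 5 of the 9 genes (Il17a, Il22, Iltifb, Rora and Ahr), and Ex4 2 the lowest Ex4 library for 7 (the same genes with Il23r and Il1r1). PBS 2 was the highest PBS library for 6 and Ex4 3 the highest Ex4 library for 5, and these were the libraries with the fewest genes detected. Without both of them the log2 fold change of the Il22 and Iltifb sum was 1.57 (SE 0.41).

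After the mean of its own group was subtracted from each library's log2 CPM, the sum of Il22 and Iltifb followed Ahr (Pearson r = 0.93 over 8 libraries) and Rora (0.83) most closely among the other genes. It had r = 0.64 with Il17a, 0.49 with Il17f, 0.23 with Ccr6, -0.02 with Il23r and -0.02 with Il1r1, and a median of -0.02 over all genes tested. These values are descriptions over 4 mice a group, which rest on few libraries such as PBS 1, whose deviation for the sum was -1.25. Among the PBS libraries Il23r was highest in PBS 4 and Il1r1 in PBS 3, whereas Il22, Il17a and Il17f were highest in PBS 2.

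**Figure D4:**
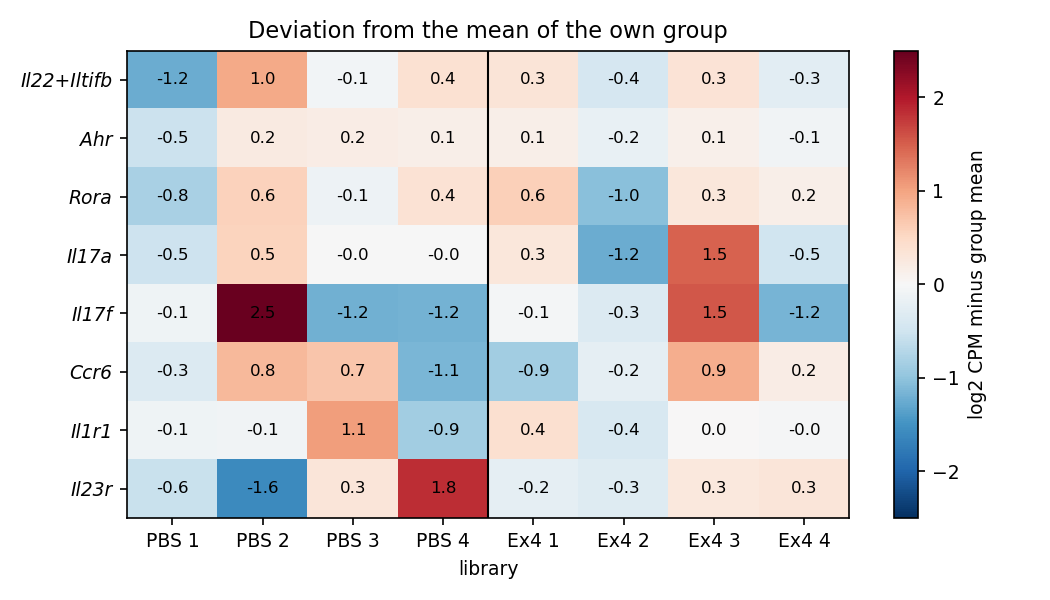
Log2 CPM of each library minus the mean of its own group (red above, blue below; printed in each cell) for Il22 plus Iltifb and 7 further genes; the line divides PBS from Ex4. PBS 1 is low and PBS 2 high for the upper 4 rows, whereas Il23r in the last row is lowest in PBS 2 and highest in PBS 4.

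Among 11180 other genes whose log2 CPM averaged 1 or more, the closest to the Il22 and Iltifb sum on this scale were Frmd4b (r = 0.996), Arid5a (0.993), Slc66a2 (0.993), Ptpn1 (0.992) and Tnfaip3 (0.990). Predicted genes, Rik clones and antigen receptor and immunoglobulin gene segments were left out of this ranking. Arid5a encodes an RNA-binding protein that stabilises cytokine transcripts, and Ptpn1 and Tnfaip3 encode a tyrosine phosphatase and the NF-kappaB inhibitor A20. Closest to Rora were Il10 (0.988), Mybl2 (0.983), Tnfrsf1a (0.977), Clcc1 (0.972) and Ramp3 (0.970). Il10, which encodes a regulatory cytokine, was at 4.33, 21.9, 9.92 and 19.7 CPM in PBS 1 to 4 and at 43.7, 8.50, 41.3 and 36.1 CPM in Ex4 1 to 4. Like Rora, it was low in PBS 1 and Ex4 2 and high in the other Ex4 libraries. With a log2 fold change of 1.21 (SE 0.61), Il10 was not called (edgeR adjusted p = 0.691). These are the highest of 11180 values over 8 libraries and are given as a description.

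The summed markers of conventional T cells and the Il22 and Iltifb sum were lowest in the same library of each group. Il17f was not, with its lowest levels in PBS 3 and Ex4 4. The summed CPM of 13 of 13 such markers was 134, 668, 448 and 592 in PBS 1 to 4 and 1096, 585, 1021 and 893 in Ex4 1 to 4, lowest within its group in PBS 1 and in Ex4 2 as for the Il22 and Iltifb sum. Of the 13, 12 had a log2 fold change above 0, with a median of 0.82, beside 0.02 for all genes tested, and none was at 0 counts in all libraries. In the edgeR test 0 passed, 3 had an unadjusted p under 0.05, all on the higher side, and DESeq2 and limma-voom called 0. Icos, a costimulatory receptor gene, was at 13.7, 104, 40.2 and 64.6 CPM in PBS 1 to 4 and at 194, 80.2, 174 and 160 CPM in Ex4 1 to 4. Ctla4, an inhibitory receptor gene, was at 25.3, 353, 199 and 355 CPM and at 642, 322, 562 and 516 CPM in the same libraries. In the means of both groups (233 ± 157 and 511 ± 136 CPM) it was the largest part of the summed CPM, which thus mainly followed few genes. Among the 16 IEL markers, 2 were higher and 2 lower at an unadjusted edgeR p under 0.05, and 0 passed in edgeR and limma-voom. Their median log2 fold change was 0.09, with 11 above 0 and 5 below. Of the 2 higher, Klrd1 was at 417 ± 27.3 and 536 ± 29.2 CPM, without overlap (log2 fold change 0.36, edgeR adjusted p = 0.466). The other was Itgb7, with overlap (0.39, edgeR adjusted p = 0.636). Cd8a, the CD8 alpha chain gene carried by many IELs, was lower in every Ex4 library than in any PBS library, at 1600 ± 322 and 1060 ± 116 CPM (log2 fold change -0.59, edgeR adjusted p = 0.351), and was called by DESeq2 (adjusted p = 0.0424). Ccr9, a gut-homing receptor gene, was at 59.4 ± 19.6 and 37.1 ± 3.73 CPM, also without overlap (-0.68, edgeR adjusted p = 0.400). The part of these cells in the values of Il22, Il17a and Rora was not tested.

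Innate lymphoid cells also use Rora, Il23r, Il1r1 and Ahr. The summed CPM of 15 of 15 markers of group 3 innate lymphoid cells was 1628 to 2018 with PBS and 1650 to 2006 with Ex4, a sum made up mainly of Id2 (874 ± 260 and 1022 ± 51.7 CPM) and Tox (292 ± 40.4 and 340 ± 53.1 CPM), which T cells also express. That of 11 of 11 group 2 markers ran from 112 to 171 and from 123 to 211 CPM, most of it Gata3 (107 ± 26.6 and 107 ± 45.6 CPM), also a gene of T cells. Il1rl1, which encodes the IL-33 receptor of group 2 cells, had 1 to 16 counts a library. In both lists 0 genes passed in edgeR, DESeq2 and limma-voom, with 1 higher and 1 lower at an unadjusted edgeR p under 0.05 in the first and 0 in the other. The part of these cells in the results was not tested.

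Further genes of the pathway came from lists of the type 17 field. No gene of the 8 lists passed in edgeR, DESeq2 or limma-voom. Of 15 transcription factors besides Rora and Ahr, 3 had an unadjusted edgeR p under 0.05, all higher, and the median over the list was 0.17 (log2 fold change). They were Nfkbiz (0.35), a co-activator of Il17a, Hif1a (0.60) and Ikzf3 (0.52), with edgeR adjusted p-values of 0.556, 0.636 and 0.654. Nfkbiz, at 124 ± 17.6 and 157 ± 13.8 CPM, did not overlap between groups. Stat3, which relays IL-6 and IL-23 signals, was at 1762 ± 512 and 2012 ± 226 CPM, and Maf at 9.18 ± 3.82 and 10.4 ± 4.61 CPM.

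Of 9 other secreted products, 0 were higher and 2 lower at that unadjusted p, and the median was 0.10. Those 2 were Ltb (-1.24, edgeR adjusted p = 0.556), which encodes lymphotoxin beta, and Csf2 (-0.96, edgeR adjusted p = 0.629), which encodes GM-CSF. Csf2 was at 167, 49.3, 75.8 and 55.5 CPM in PBS 1 to 4 and at 33.5, 60.9, 48.8 and 34.9 CPM in Ex4 1 to 4, with PBS 1 standing apart. Il21 was at 14.9 ± 9.91 and 26.9 ± 13.1 CPM (0.85, edgeR adjusted p = 0.877). The products of type 17 cells thus did not share a direction in their means.

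Of the inducing cytokines 10 of 12 could be tested, with 1 higher and 1 lower at an unadjusted p under 0.05 and a median of 0.07. Il1b, which encodes a ligand of the Il1r1 product, was at 17.3 ± 4.29 and 27.0 ± 6.51 CPM (0.65, edgeR adjusted p = 0.486). Tgfb3 was at 149 ± 55.8 and 81.7 ± 22.1 CPM (-0.86, edgeR adjusted p = 0.432). Il23a, which encodes the subunit particular to IL-23, was too sparse to be tested, with 0, 0, 1 and 2 counts in PBS 1 to 4 and 13, 20, 22 and 3 in Ex4 1 to 4. Il12b, its partner subunit, was at 1.31 ± 0.718 and 1.42 ± 0.858 CPM, and Il6 at 2.94 ± 0.599 and 3.00 ± 0.570 CPM.

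Of 21 tested receptors and surface genes besides Il23r, Ccr6 and Il1r1, 3 were higher and 1 lower at that p, with a median of 0.02. Il18rap, an IL-18 receptor subunit, was at 22.8 ± 8.27 and 39.7 ± 10.7 CPM (0.79, edgeR adjusted p = 0.477), Il7r had a log2 fold change of 0.58 (0.596) and Tgfbr1 of -0.37 (0.624), with edgeR adjusted p-values in parentheses. In the list of receptors for IL-17 and IL-22 and their adaptors, 1 of 10 tested genes was higher and 1 lower, with a median of -0.11. Il17ra, the shared IL-17 receptor subunit, was at 33.1 ± 9.34 and 49.9 ± 14.6 CPM (0.59, edgeR adjusted p = 0.595). The kinase genes Tyk2 (-0.59, edgeR adjusted p = 0.432) and Jak1 (-0.27, edgeR adjusted p = 0.670) were lower in every Ex4 library than in any PBS library. Il22ra1, the IL-22 receptor subunit of epithelial cells, was at 2.04 ± 0.995 and 2.07 ± 0.744 CPM, and Il22ra2, a soluble decoy for IL-22, at 6.46 ± 0.996 and 4.33 ± 2.31 CPM.

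Target genes of IL-17 and IL-22 had 2 higher and 0 lower of 19 tested at an unadjusted p under 0.05, with a median of 0.21. Socs3, a feedback inhibitor of STAT3, was at 42.5, 145, 117 and 164 CPM in PBS 1 to 4 and at 241, 153, 240 and 223 CPM in Ex4 1 to 4 (0.88, edgeR adjusted p = 0.614). It was lowest in PBS 1 and Ex4 2 within the groups, like the IL-22 genes. The antimicrobial lectin genes varied between mice more than between groups, with Reg3g at 244 ± 192 and 280 ± 199 CPM and Reg3b at 177 ± 120 and 205 ± 137 CPM. Markers of epithelium, where many such targets are expressed, had a summed CPM of 620 to 1346 with PBS and 323 to 696 with Ex4 over 18 of 18 markers. Of the 18, 16 had a log2 fold change below 0 and 2 above, with a median of -0.57. At an unadjusted edgeR p under 0.05, 4 were lower and 0 higher, and 0 passed in edgeR, DESeq2 and limma-voom. The part of epithelial cells in these values was not tested.

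In the AHR pathway 1 of 11 tested genes was higher and 0 lower, with a median of 0.11. That gene was Arnt, which encodes the dimer partner of AHR, at 56.1 ± 12.4 and 78.9 ± 6.07 CPM (0.49, edgeR adjusted p = 0.432). Of the classic AHR targets, Tiparp was at 123 ± 5.00 and 129 ± 9.49 CPM and Ahrr, the AHR repressor gene, at 12.8 ± 2.12 and 12.6 ± 2.85 CPM. Cyp1b1 was low and varied, with 2, 3, 37 and 11 counts in PBS 1 to 4 and 41, 81, 8 and 42 in Ex4 1 to 4. That is 0.669 ± 0.814 and 2.03 ± 1.30 CPM (1.59, edgeR adjusted p = 0.723). Of 14 tested genes that restrain the programme, 1 was higher and 2 lower, with a median of -0.01, among them Gfi1 (-0.48, edgeR adjusted p = 0.523) and Stat5a (-0.33, edgeR adjusted p = 0.538).

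**Figure D5:**
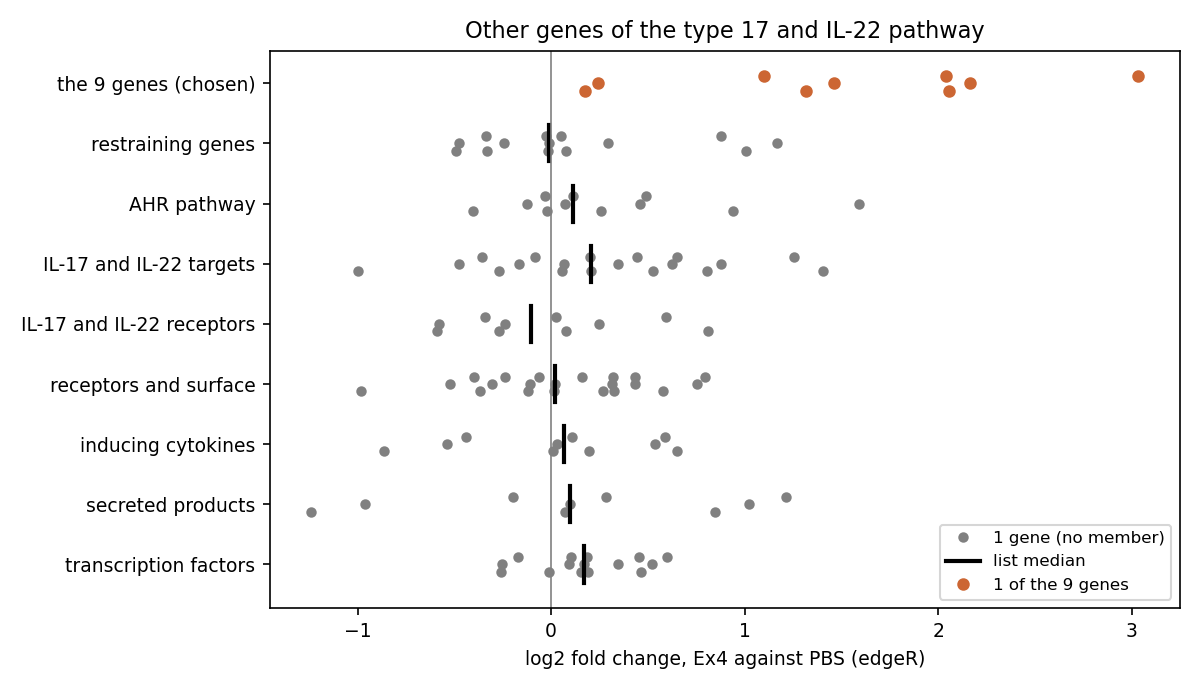
Log2 fold changes of Ex4 against PBS (edgeR) for the genes of 8 lists of the pathway (grey points, 1 gene each; black lines, list medians) and for the 9 chosen genes (orange, no median). The list medians lie between -0.11 and 0.21, and most orange points lie to the right of them, the genes having been chosen with that difference known.

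The neighbours of the cytokine genes differed among themselves. On chromosome 10 Ifng, the gene of interferon gamma, lies beyond Iltifb, from 118441046 to 118445894, and was at 100, 112, 196 and 173 CPM in PBS 1 to 4 and at 61.0, 101, 126 and 73.5 CPM in Ex4 1 to 4. Its log2 fold change was -0.69 (SE 0.26, edgeR adjusted p = 0.554), opposite in sign to that of Il22. On the other side of Il22, Mdm1 had -0.17 (edgeR adjusted p = 0.940) and Rap1b 0.35 (edgeR adjusted p = 0.565). On chromosome 1, beyond Il17f, Mcm3 had -0.19 (edgeR adjusted p = 0.866) and Paqr8 1.22 (edgeR adjusted p = 0.543), the latter at 1.35, 1.16, 2.63 and 3.83 CPM in PBS 1 to 4 and at 7.84, 5.12, 3.17 and 4.67 CPM in Ex4 1 to 4. Ifngas1, past Ifng, had 0 to 6 counts a library, and Lincmd1 and Mir133b, before Il17a, had 0 in all 8.

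RefSeq start windows of 300 bases were found for 8 of the 9 genes, 10 windows in all. Of these, 3 were set at the edge of the RefSeq gene span and 7 at a start inside it, that of Il17f 1004 bases inside. The half-site AGGTCA, which RORα binds, was present on either strand in the windows of 5 genes, Il17a, Il17f, Il23r, Ccr6 and Iltifb, and in 16.3% of 32851 windows of all genes. The sites are shown with the flanking 12 bases because A- and T-rich bases before the half-site are part of a full ROR element. Each is read on the strand that holds AGGTCA, in capitals, with GRCm38.p6 coordinates.
Il17a, chr1:20730773-20730802, minus strand: catcctcaaatgAGGTCAgcacagaaccac
Il17f, chr1:20784311-20784340, minus strand: cagtcagtaaggAGGTCAgtggaaacaggg
Il23r, chr6:67492067-67492096, plus strand: aagaagtcaaacAGGTCAatggtggtcatg
Il23r, chr6:67491904-67491933, minus strand: aaatgaaaatgtAGGTCAgggctctgctga
Ccr6, chr17:8235987-8236016, minus strand: acttatgtaactAGGTCAatgatttcactg
Iltifb, chr10:118295136-118295165, plus strand: aaatcatagccaAGGTCAagttaagtttgg
The site of Iltifb lies before the stretch shared with Il22, whose window holds no AGGTCA.

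The AHR core GCGTG occurred in the windows of Rora and Il1r1, against 32.4% of all windows, and not in those of the Il22 copies. The STAT motif TTCNNNGAA occurred in that of Ccr6 (8.3% of all) and the AP-1 motif TGANTCA in that of Il17a (7.8%). The CREB half-site TGACG, which lies within the full site TGACGTCA, occurred in the windows of Il17a, Il17f, Ccr6 and Il1r1 (20.8% of all), and the full site in none of the 10 (1.8% of all). All motifs were searched on both strands, and a match describes the letters only.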

How the data were processed

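The authors deposited whole-number gene counts, not normalised, for 8 libraries of strand-specific mRNA. The submitters' processing notes name the genome build mm10 and, among tools, STAR 2.7.9a and DESeq2, with no role stated. The read counter and annotation were not given in the sources used here. Each column was matched to a mouse through the labels. The 9 genes and the gene lists were chosen with earlier results of these data known. All of the 14691 genes kept by filterByExpr were fitted in R 4.3.3 with edgeR 4.0.16 (TMM, robust dispersions, quasi-likelihood F test, Benjamini-Hochberg, threshold 0.05), and again with Il22 and Iltifb as 1 summed row. The filter asked for about 0.480 CPM in 4 libraries. SEs were derived from the fold change and its F statistic. Shallower libraries give less precise values of genes at a few counts. The labels describe separate mice but no litter, cage or batch. Libraries of a group differed beyond sampling noise (mean chi-square per gene from 20.6 to 77.1). DESeq2 1.42.0 and limma 3.58.1 were alternatives, with DESeq2 run on all genes with a count. Lengths are exon unions of GENCODE M21, positions and windows come from RefSeq GRCm38.p6, and sequences were compared with biopython 1.88. Log2 CPM used a prior count of 2. Named genes were, besides the 9, a fixed set of pathway genes, the 3 genes of each pathway list with the smallest p, the 2 most abundant of each cell type list, the 2 nearest neighbours of each cytokine pair and the 5 genes closest in pattern to the Il22 and Iltifb sum and to Rora. Outside this rule, Il1rl1, Cd8a, Ccr9, Klrd1 and Itgb7 were named with their values already seen.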

Additional observations from a re-analysis of the deposited data

Results flagged for a closer look

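For each group of 4 libraries, Dixon's ratio set the gap of the highest or lowest library against the group's range, for the 9 genes and the summed copies, the summed lists, total counts and genes detected at matched depth. Of 60 groups 4 passed the 95% limit of that ratio, where chance passes about 1 in 20. Levels below are in CPM, and their ratios are those of log2(CPM + 0.1). Ahr was low in PBS 1, at 162 against 260 CPM in the nearest library (ratio 0.896). The summed markers of group 2 innate lymphoid cells were high in Ex4 4, at 211 against 127 CPM (0.937). The summed epithelial markers were low in Ex4 1, at 323 against 614 CPM (0.836). The summed mast cell markers were high in PBS 1, at 205 against 74.1 CPM (0.837).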

How the results depend on the processing

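The log2 fold change of the Il22 and Iltifb sum stayed above 0 in all 21 alternatives and passed the threshold in none of them. With 1 library left out it ran from 1.04 (without PBS 1) to 1.69 (without PBS 2). It was 1.47 with a replicate block, 1.32 for the Il22 row alone and 2.16 for the Iltifb row alone. Of the 9 genes, 3 were called by DESeq2 and 0 in every other alternative. Over all genes 2 were called, against 70 with DESeq2, 1 with limma-voom, 8 with no filter on low counts, 1 with the replicate block, 1 with the run of label numbers as a term, and 1 to 14 with 1 library left out, the 14 without PBS 2. The labels do not state whether replicate numbers pair the mice. Same-numbered libraries deviated with correlations from -0.24 to 0.14, and 2 of 8 libraries correlated best with their own number. With 4 numbers these values cannot show whether mice were paired. Ccr6 changed sign without PBS 4 (-0.11) and without Ex4 3 (-0.24), and was at most 0.44 (without PBS 2). The cause of these changes was not tested. Il17a, Iltifb and Il23r rest on at most 17 counts in each PBS library, which limits their fold changes.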
